A study of Rattus norvegicus with 11 samples.

Results

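Interferon response genes were examined in RNA-seq libraries of Cd45- cells from rat calvarial defects, to ask whether their levels followed that of Ifnb1, the gene for interferon beta. They were chosen by name: 40 gene symbols out of 23781 genes in the table. These were Ifnb1 and 39 genes known as targets of interferon or as sensors of nucleic acid. All 40 were present, and all 40 passed the filter on low counts that left 18049 genes for testing. No measured value entered the choice by name, but results of these libraries were known when the names were chosen. The animals were Sprague Dawley rats labelled 4 months old, in which a defect had been cut across the coronal suture and the bone beside it. Tissue was taken 6 weeks after surgery from defects left without a scaffold (NC, n = 3 libraries) or filled with a gelatin methacryloyl hydrogel (GelMA, n = 3), a porous chitosan scaffold (CTS, n = 3) or an electrospun polylactic acid membrane (PLA, n = 2). In every group the tissue had been digested with collagenase, and the cells had been fixed, permeabilized and stained for CD45 before those without the stain were sorted. The labels do not say whether each library came from 1 animal, so the p-values measure the spread between these libraries, which may in part be technical.

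Interferon beta is a secreted type I interferon that cells make when sensors of foreign or misplaced nucleic acid are triggered. It binds a receptor made of Ifnar1 and Ifnar2, and the kinases on that receptor switch on a complex that holds Stat2 and Irf9. This complex binds a DNA element, the interferon-stimulated response element (ISRE), before many antiviral genes. Interferon gamma, made mainly by T cells and natural killer cells, acts through another element, the gamma-activated site (GAS), and the targets of both ligands overlap.

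Letters of these elements were in the sequence around the start of many members. RefSeq promoters of the rat assembly GRCr8, from 250 bases before to 50 bases after the start, were given for 32 of the 40 members, the others being Dhx58, Zbp1, Ifit1, Ifit2, Mx2, Oas2, Isg15 and Usp18. The authors' build was mRatBN7.2, so these positions hold for GRCr8 alone. Both strands were searched for the ISRE letters (GAAA, any pair of bases, then GAAA), the GAS letters TTCNNNGAA and the kappaB motif, the element bound by NF-κB. ISRE letters were in 19 of the 32 member promoters (59.4%) and in 3.77% of all 27457 promoters of this length. GAS letters were in 9 of 32 (28.1%) against 8.68%, and the kappaB motif was in 9 of 32 against 7.6%. A match overlapped its neighbour in some promoters, as in Oas1a, whose pair of ISRE matches shares bases. Of the members with a promoter, ISRE letters were in 11 of the 20 that passed the test in at least 1 comparison below and in 8 of the 12 that passed in none. Members that passed but lacked these letters were Ifnb1, Irf8, Mx1, Oasl, Herc6, Trim25, Parp9, Cxcl11 and Psmb9. The Ifnb1 promoter is shown first, since every comparison below is read against this gene, with its kappaB match in capitals. Next come some of the members that passed and hold ISRE letters, with the match in capitals (TTTC, any pair of bases, then TTTC where the match lies on the other strand). Then come Irf8 with 1 of its GAS matches and Cxcl11 with its kappaB match in capitals. Other matches of these members are not marked, among them a GAS match of Cxcl11 that lies outside the window shown.
Ifnb1 (chr5:108067508-108067607, - strand): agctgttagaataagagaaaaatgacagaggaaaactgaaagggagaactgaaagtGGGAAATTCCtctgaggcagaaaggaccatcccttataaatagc
Ifit3 (chr1:241527267-241527306, + strand): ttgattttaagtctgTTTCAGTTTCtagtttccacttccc
Gbp2 (chr2:234005681-234005720, + strand): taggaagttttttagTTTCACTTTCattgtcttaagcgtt
Gbp5 (chr2:233910928-233910967, + strand): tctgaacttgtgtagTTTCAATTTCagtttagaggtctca
Irf7 (chr1:205800068-205800107, - strand): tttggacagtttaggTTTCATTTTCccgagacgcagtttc
Oas1a (chr12:41330416-41330455, + strand): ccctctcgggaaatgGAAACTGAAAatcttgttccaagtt
Isg20 (chr1:142239952-142239991, + strand): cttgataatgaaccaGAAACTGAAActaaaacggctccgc
Parp14 (chr11:78408043-78408082, + strand): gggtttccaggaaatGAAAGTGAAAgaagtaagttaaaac
Tap1 (chr20:4668640-4668679, - strand): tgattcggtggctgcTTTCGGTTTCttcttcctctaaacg
Irf8 (chr19:65699089-65699127, + strand): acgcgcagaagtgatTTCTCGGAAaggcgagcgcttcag
Cxcl11 (chr14:15973639-15973678, + strand): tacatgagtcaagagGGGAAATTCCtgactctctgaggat

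Total counts per library ran from 22509898 to 31290849. Members took 0.138% to 0.150% of the counts in NC, 0.255% to 0.6003% in GelMA, 0.273% to 0.683% in CTS, and 0.479% and 0.559% in PLA. Ptprc, which encodes CD45, was read at 336 to 1459 CPM across all 11 libraries, although the cells are labelled Cd45-. NC 2 stood apart from NC 1 and NC 3 in that its summed mesenchymal and fibroblast markers reached 227191 CPM against 9305 and 28710 CPM, and its Ptprc was the 336 CPM. Markers of mesenchymal cells were read in every library, alongside those of macrophages, neutrophils, dendritic cells and lymphocytes. In such bulk samples, fewer cells of a type and less RNA per cell cannot be told apart.

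Interferon response genes were called higher than in NC in each scaffold group, among them Ifit3, Isg15 and Gbp2 in PLA, Mx1, Gbp5 and Tap1 in GelMA, and Mx1 and Oas1a in CTS. A level is given as CPM, the count scaled to a common total, after TMM factors that offset differences in library composition. In edgeR's quasi-likelihood test, with Benjamini-Hochberg adjustment over all 18049 genes, a member had to reach an adjusted p below 0.05 and change by more than 1 on the log2 scale to be called. In PLA, 18 of 40 members were called higher than in NC and 0 lower, where 8.32% of all tested genes were called higher and 4.01% lower. In GelMA, 16 were called higher than in NC and 0 lower, against 5.03% and 3.21% of all genes. The members called in PLA and GelMA include Ifnb1. It had 0 counts in NC and passed the count filter only through the groups where it was high. In CTS, 2 were called higher and 0 lower, against 0.155% and 0.0222% of all genes. The median log2 fold change over members was 1.66 in PLA, 1.47 in GelMA and 1.52 in CTS against NC, where the median over all genes was between -0.11 and -0.02. Among the 40, 36 had a higher fitted value in PLA than in NC, 38 in GelMA and 39 in CTS. For 29 members every PLA library lay above every NC library, for 22 the same held of GelMA and for 27 of CTS, against 21.9%, 19.3% and 9.51% of all genes. All libraries lay below NC for 1 member in PLA, 0 in GelMA and 0 in CTS, against 17.2%, 11.2% and 5.11% of all genes. At an unadjusted p under 0.05, 25 members were higher in PLA, 27 in GelMA and 34 in CTS, against 16.0%, 14.9% and 7.11% of all genes. At that p 0 members were lower in any of the 3, against 14.3%, 13.1% and 4.79% of all genes. These comparisons share the NC libraries, so they do not bear on NC independently.

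The count for CTS depended most on the tool and on single libraries. DESeq2 on the same groups called 24 members higher in CTS than in NC, where it called 2.07% of all genes, and limma on log2(FPKM + 1) called 0, where it called 0.0111%. Leaving out CTS 2 gave 9 (0.722% of all genes) and leaving out NC 2 gave 8 (0.609%), whereas leaving out any other library gave 0 (at most 0.37%). For PLA against NC the count was 21 without NC 2 (11.4% of all genes), with 1 member lower (7.58%), and it fell to 9 without PLA 1 (4.55%) and 8 without PLA 2 (4.7%). For GelMA against NC it was 20 without NC 2 (7.26%), 10 without CTS 1, 9 without CTS 3, 8 without PLA 1 or PLA 2, 7 without NC 3, 6 without GelMA 2 and 5 without GelMA 3, and in those last 7 fits 2.62% to 4.22% of all genes were called higher. DESeq2 called 22 members higher in PLA (10.3% of all genes) and 19 in GelMA (6.97%) than in NC, and 0 lower in either (7.76% and 8.32%). There limma called 13 (4.81%) and 19 (5.55%) higher and 0 lower (3.19% and 0.986%).

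Between scaffolds few members passed the test. In PLA against GelMA, edgeR called 0 members higher and 0 lower, where 4.61% and 1.47% of all genes were called. At an unadjusted p under 0.05, 4 members were higher and 7 lower in PLA than in GelMA, against 12.4% and 12.8% of all genes. DESeq2 called 4 higher and 1 lower, against 7.27% and 3.09% of all genes, and limma called 0 higher and 6 lower, against 2.3% and 7.6%. In PLA against CTS, Ifnb1 and Gbp2 were called higher and Trim25 lower, where 6.42% and 3.53% of all genes were called, and at an unadjusted p under 0.05 there were 6 higher and 6 lower, against 14.1% and 14.7%. In CTS against GelMA, edgeR called 0 higher and 0 lower, where 0.416% and 1.32% of all genes were called, with 9 higher and 5 lower at an unadjusted p under 0.05, against 8.28% and 9.13%. DESeq2 called 3 higher and 3 lower there, against 3.26% and 3.46% of all genes, and limma called 0 in each direction. Every PLA library lay above every GelMA library for 16 members and below for 10, against 27.7% and 30.7% of all genes. Relative to CTS, PLA lay above for 10 and below for 11, against 26.5% and 27.8%. Relative to GelMA, CTS lay above for 5 (Irf9, Ifit1, Oas1a, Oas3 and Ifi27) and below for 7 (Ifnb1, Irf8, Gbp5, Cxcl9, Tap1, Psmb8 and Psmb9), against 17.0% and 19.0%. The median log2 fold change of members in PLA against GelMA was 0.19 after TMM and -0.34 with library size alone, and that scaling moved the median of all genes by -0.54. Relative to the median of all genes it was 0.24 under both scalings, and -0.05 with limma. Without NC 2, 2 members were higher and 2 lower in PLA than in GelMA, against 7.2% and 3.49% of all genes in that fit. In PLA against CTS it gave 2 higher and 2 lower, against 8.88% and 6.21%, and in CTS against GelMA 3 higher and 1 lower, against 3.75% and 3.38%.

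**Figure D1:**
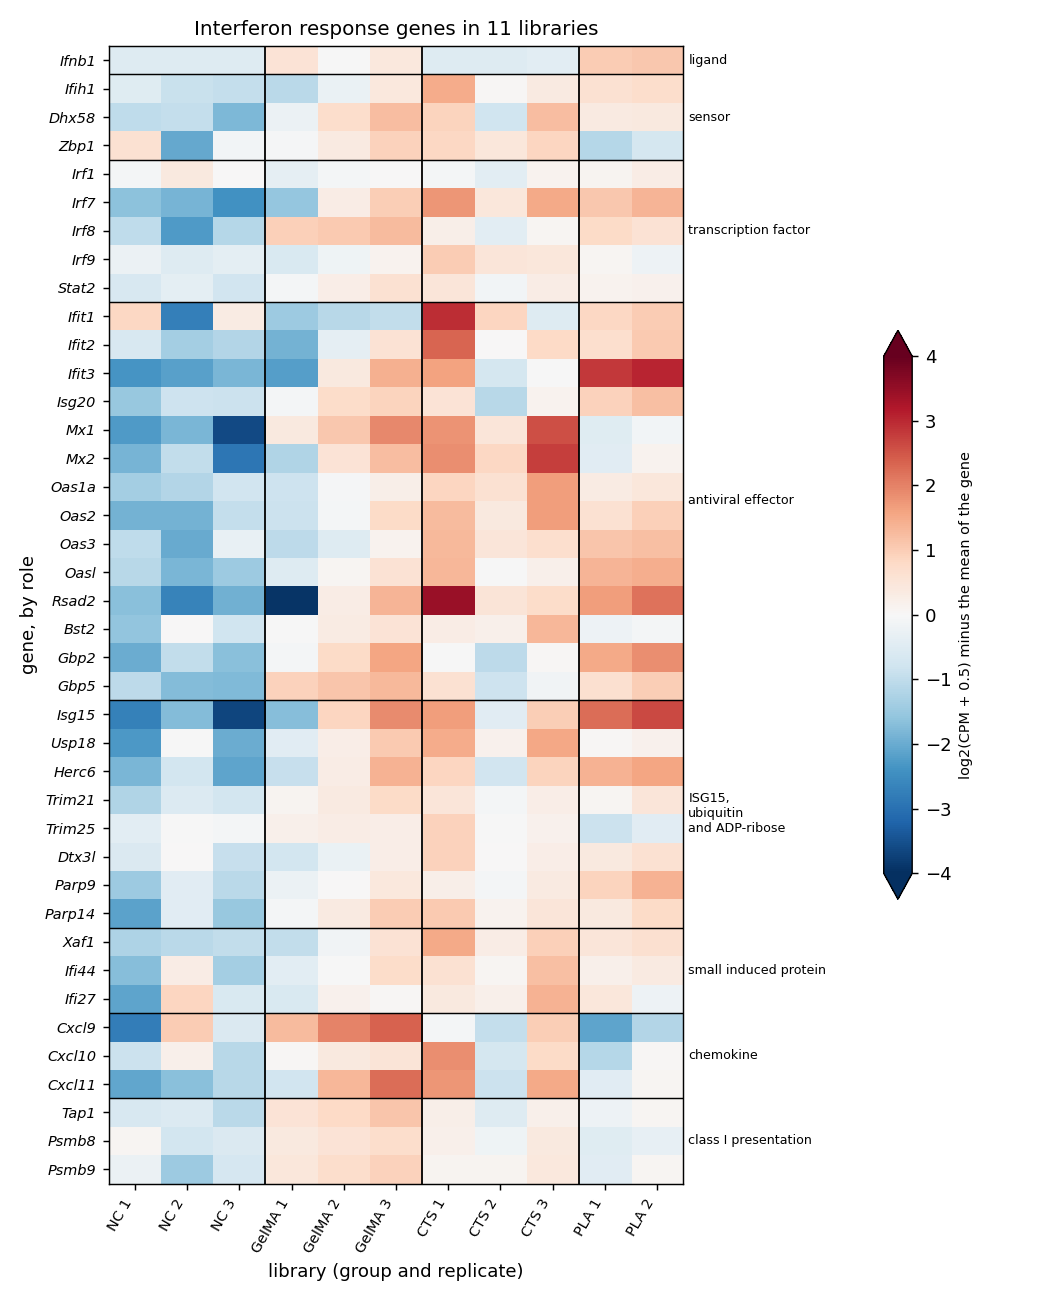
Levels of the 40 members in the 11 libraries, as log2(CPM + 0.5) centred on each gene's mean over libraries, with members ordered by role. The NC columns sit lowest for most members, GelMA 1 and CTS 2 sit low within their groups, and the PLA columns resemble each other.

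Ifnb1 was read in GelMA and PLA and nearly absent from NC and CTS. It had 0, 0 and 0 counts in NC, 18, 7 and 16 in GelMA, 0, 0 and 1 in CTS, and 23 and 24 in PLA, as numbers of reads. The levels were 0.541, 0.212 and 0.467 CPM in GelMA, 0, 0 and 0.0328 in CTS, and 0.953 and 1.03 in PLA. All GelMA and PLA libraries lay above all NC and CTS libraries, and both PLA libraries lay above all 3 of GelMA. With 0 counts in NC, the floor of 3 counts over the group (0.0418 CPM) put Ifnb1 at least 23.7-fold higher in PLA and at least 9.77-fold higher in GelMA than in NC. PLA exceeded GelMA 2.43-fold, with an exact 95% counting interval of 1.56 to 3.79. PLA exceeded CTS 95.2-fold (16.3 to 3840) and GelMA exceeded CTS 39.2-fold (6.65 to 1584) on a single CTS count. These floors and intervals pool the reads of each group and cover counting error alone, not the spread between libraries. In edgeR's test over libraries, Ifnb1 did not pass in PLA against GelMA, with a log2 fold change of 1.28 ± 1.16 (SE, adjusted p = 0.544). Nor did it pass in CTS against GelMA (adjusted p = 0.114). By FPKM, without TMM factors, its means were 1.39 in PLA and 0.828 in GelMA. Ifnb1 was called higher in PLA than in NC (adjusted p = 0.0172) and CTS (adjusted p = 0.0275) and in GelMA than in NC (adjusted p = 0.0391), and it passed the count filter only through the groups where it was high. The call against NC was lost in PLA without PLA 1 or PLA 2 (adjusted p 0.0713 and 0.0752), and in GelMA without NC 3, GelMA 1, GelMA 2, GelMA 3, CTS 1, CTS 2, CTS 3, PLA 1 or PLA 2 (adjusted p 0.0525 to 0.114). The call over CTS was lost without GelMA 1, GelMA 2, GelMA 3, CTS 1, CTS 2, PLA 1 or PLA 2 (adjusted p 0.0504 to 0.123).

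**Figure D2:**
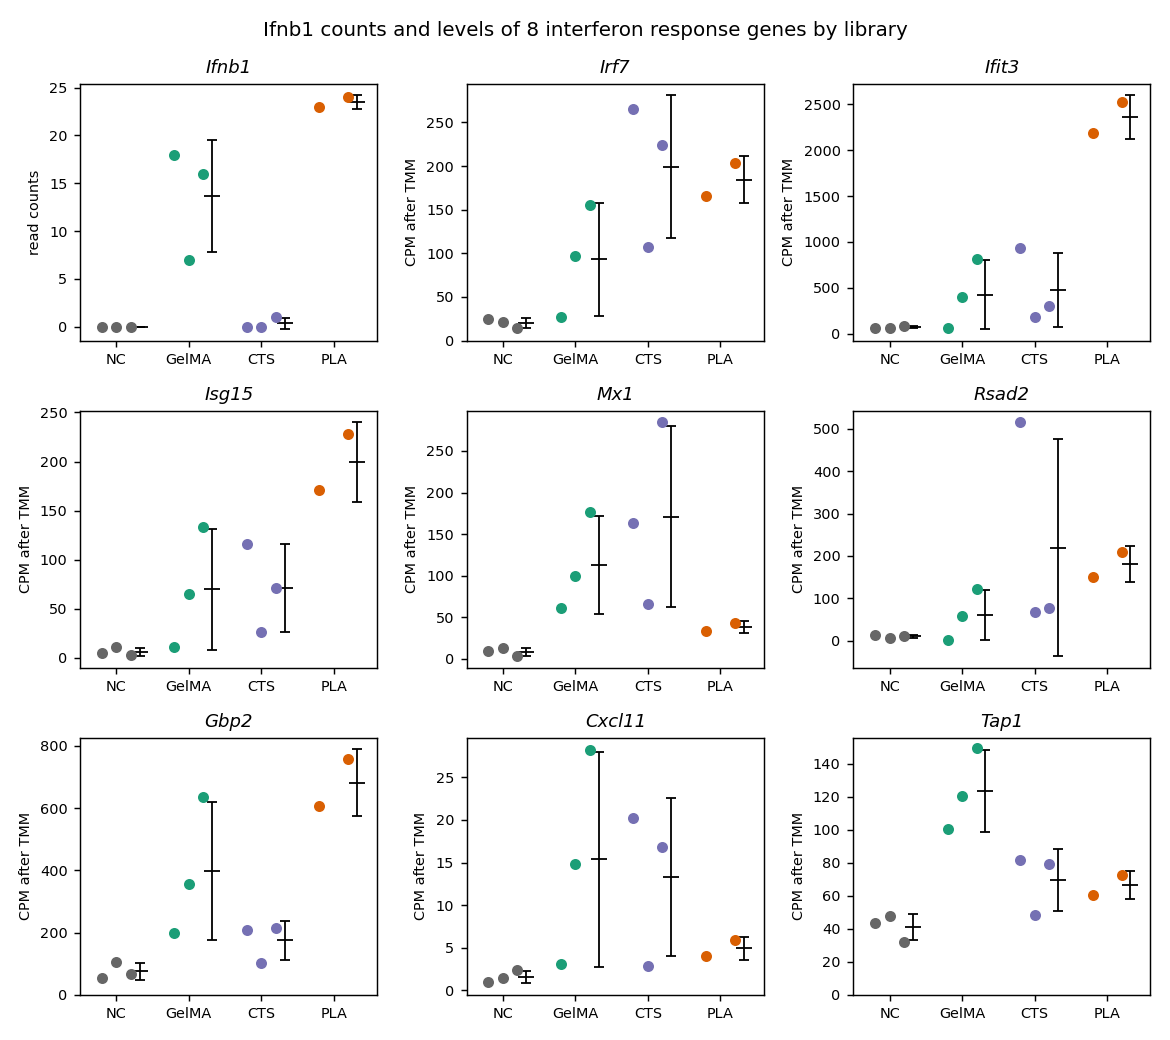
Read counts of Ifnb1 and CPM of 8 members that follow different orders across the groups, 1 point per library, with the group mean and SD beside the points (n = 3, and 2 in PLA; the lower SD runs below 0 for Ifnb1 and Rsad2 in CTS). Ifnb1 is at or near 0 in NC and CTS, whereas Mx1 is highest in GelMA and CTS libraries.

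Among the sensors of nucleic acid, Dhx58, an RNA helicase of the RIG-I family, was called higher in GelMA than in NC. It stood at 5.47, 5.74 and 2.99 CPM in NC, 9.82, 19.3 and 28.1 in GelMA, 22.1, 6.57 and 28.1 in CTS, and 15.1 and 15.4 in PLA. The GelMA and PLA libraries all exceeded NC, and CTS 2 came down close to the NC range. The log2 fold change of GelMA over NC was 2.01 ± 0.54 (SE, adjusted p = 0.0412). This call was lost without NC 1, NC 3, GelMA 2, GelMA 3, CTS 1, PLA 1 or PLA 2 (adjusted p 0.0551 to 0.160). Ifih1, which encodes the RNA sensor MDA5, had group means of 41.2 ± 7.79 CPM in NC, 60.9 ± 30.0 in GelMA, 119 ± 67.7 in CTS and 111 ± 5.30 in PLA (SD). Zbp1, a sensor of left-handed nucleic acid, was lower in both PLA libraries (13.1 and 18.1 CPM) than in any GelMA or CTS library (28.8 to 56.5 CPM). Neither Ifih1 nor Zbp1 passed the test in any comparison.

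Among the transcription factors, Irf7 and Irf8 were called higher than in NC in both PLA and GelMA. Irf7, the factor that amplifies type I interferon production, stood at 25.0, 21.5 and 14.4 CPM in NC, 26.5, 97.4 and 155 in GelMA, 265, 107 and 225 in CTS, and 165 and 203 in PLA. Its CTS and PLA levels overlapped, and GelMA 1 lay just above the NC range. Over NC, the log2 fold change was 3.18 ± 0.61 (SE, adjusted p = 0.00681) in PLA and 2.20 ± 0.56 (SE, adjusted p = 0.0343) in GelMA. In CTS it was 3.29 ± 0.58 (SE, adjusted p = 0.0612), which did not pass. Irf8, a factor of myeloid and dendritic cells that interferon gamma induces, stood at 77.4, 31.9 and 70.0 CPM in NC, 301, 324 and 373 in GelMA, 183, 117 and 164 in CTS, and 263 and 232 in PLA. GelMA was highest and did not overlap any other group, and PLA exceeded CTS in every library. It changed over NC by 2.48 ± 0.31 (SE, adjusted p = 0.00126) on the log2 scale in GelMA and 2.05 ± 0.33 (SE, adjusted p = 0.00263) in PLA. Both Irf8 calls held on leaving out each library in turn, as did Irf7 in PLA, and the Irf7 call in GelMA was lost without NC 2, NC 3, GelMA 2, GelMA 3, CTS 1, CTS 3, PLA 1 or PLA 2 (adjusted p 0.0519 to 0.142).

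Irf1, Irf9 and Stat2 did not pass the test in any comparison. Irf1, a factor of the interferon gamma response, ranged from 241 to 417 CPM over all libraries, and its group means lay between 292 and 369 CPM. Irf9, the DNA-binding part of the type I complex, averaged 87.3 ± 20.0 CPM in CTS against 41.9 ± 4.40 in NC (SD, n = 3), and all CTS libraries lay above those of every other group. Stat2, its partner, averaged 43.7 ± 5.90 CPM in NC, while GelMA had 81.2 ± 18.8, CTS 78.8 ± 16.3 and PLA 74.5 ± 1.15.

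Of 14 antiviral effectors, 9 were called higher than in NC in PLA, 5 in GelMA and 2 in CTS. Of all genes, 8.32%, 5.03% and 0.155% were called higher there. Ifit3, which binds Ifit1 and steadies it on foreign RNA, was the highest member by FPKM, which is per length, with a mean of 896 ± 83.9 FPKM in PLA against 33.9 ± 10.1 in NC. It stood at 58.8, 66.8 and 85.1 CPM in NC, 66.1, 399.7 and 811 in GelMA, 935, 185 and 303 in CTS, and 2191 and 2528 in PLA. Both PLA libraries exceeded all others, CTS 1 was the next, and GelMA 1 lay within the NC range. The log2 fold change of PLA over NC was 5.07 ± 0.93 (SE, adjusted p = 0.00545) and held without each library. In GelMA it was 2.60 ± 0.80 (SE, adjusted p = 0.0663) and in CTS 2.76 ± 0.81 (SE, adjusted p = 0.203), neither of which passed. Ifit1, its partner, stood at 66.4, 5.19 and 47.0 CPM in NC, 13.2, 16.8 and 18.3 in GelMA, 289, 67.2 and 25.8 in CTS, and 66.0 and 74.5 in PLA, and Ifit2, of the same family, at 92.2, 56.4 and 63.7 CPM in NC, 38.3, 112 and 218 in GelMA, 721, 145 and 253 in CTS, and 229 and 296 in PLA. CTS 1 was highest for both, GelMA was lowest for Ifit1 in its mean, and neither passed the test. Reads may be shared between near-identical copies within the Ifit, Oas, Mx and Gbp families, and the strand setting of the counting is not given in the sources used here.

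The Oas genes encode synthetases of the oligoadenylate messenger that switches on RNase L. Oasl, a relative without that activity, stood at 34.2, 20.7 and 26.9 CPM in NC, 51.9, 78.8 and 111 in GelMA, 187, 73.7 and 86.4 in CTS, and 192 and 205 in PLA. All scaffold libraries exceeded all NC libraries, and both PLA libraries lay above the rest. Over NC, it changed by 2.86 ± 0.42 (SE, adjusted p = 0.00160) on the log2 scale in PLA, which held without each library, and 1.56 ± 0.38 (SE, adjusted p = 0.0296) in GelMA, which was lost without NC 2, NC 3, GelMA 2 or GelMA 3 (adjusted p 0.0535 to 0.129). Oas1a stood at 5.22, 6.01 and 8.27 CPM in NC, 7.90, 14.0 and 17.1 in GelMA, 26.6, 21.9 and 46.4 in CTS, and 18.0 and 19.8 in PLA. CTS was highest, every CTS library lay above every other group, and GelMA 1 lay within the NC range. Relative to NC, it changed by 2.28 ± 0.36 (SE, adjusted p = 0.0474) on the log2 scale in CTS and 1.54 ± 0.38 (SE, adjusted p = 0.0228) in PLA. Oas2 stood at 1.06, 1.08 and 2.53 CPM in NC, 2.73, 5.04 and 9.46 in GelMA, 13.6, 7.11 and 17.9 in CTS, and 8.41 and 10.7 in PLA. Oas3 stood at 24.3, 11.9 and 40.6 CPM in NC, 24.0, 35.0 and 55.1 in GelMA, 125, 70.5 and 79.6 in CTS, and 109 and 116 in PLA. Both were called higher in PLA than in NC, by 2.60 ± 0.58 (SE, adjusted p = 0.0146) and 2.14 ± 0.47 (SE, adjusted p = 0.0140) on the log2 scale, and Oas3 in CTS lay above every GelMA library. The CTS call of Oas1a was lost without NC 1, NC 3, GelMA 1, GelMA 2, GelMA 3, CTS 1, CTS 3, PLA 1 or PLA 2 (adjusted p 0.0571 to 0.177). The PLA calls were lost for Oas1a without NC 1, PLA 1 or PLA 2 (adjusted p 0.0515 to 0.123), for Oas2 without PLA 1 or PLA 2 (adjusted p 0.0549 to 0.0868) and for Oas3 without PLA 1 or PLA 2 (adjusted p 0.0643 to 0.0751).

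Mx1, a GTPase that blocks viral nucleocapsids, was called higher than in NC in all 3 scaffold groups, with the larger changes outside PLA. It stood at 9.33, 12.9 and 3.37 CPM in NC, 61.6, 100.1 and 177 in GelMA, 163, 66.2 and 284 in CTS, and 33.5 and 43.0 in PLA. Every GelMA and CTS library exceeded both PLA libraries, which in turn exceeded NC. On the log2 scale, it exceeded NC by 4.33 ± 0.67 (SE, adjusted p = 0.0474) in CTS, 3.73 ± 0.65 (SE, adjusted p = 0.00691) in GelMA and 2.17 ± 0.65 (SE, adjusted p = 0.0491) in PLA. The GelMA call held without each library, the CTS call was lost without NC 1, NC 3, GelMA 1, GelMA 2, GelMA 3, CTS 1, CTS 3, PLA 1 or PLA 2 (adjusted p 0.0542 to 0.177), and the PLA call without NC 1, NC 3, GelMA 1, GelMA 2, GelMA 3, CTS 1, PLA 1 or PLA 2 (adjusted p 0.0571 to 0.205). Mx2, its paralog, stood at 6.66, 12.5 and 2.99 CPM in NC, 10.7, 37.5 and 60.3 in GelMA, 93.2, 45.9 and 175 in CTS, and 18.6 and 28.0 in PLA. Its CTS libraries exceeded both PLA libraries, and it did not pass the test.

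Gbp2 and Gbp5, guanylate-binding GTPases that attack vacuoles and promote inflammasomes, were called higher in PLA and GelMA than in NC. Gbp2 stood at 52.9, 106 and 66.4 CPM in NC, 199, 358 and 636 in GelMA, 208, 102 and 216 in CTS, and 605 and 757 in PLA. PLA exceeded CTS in every library, GelMA 3 overlapped PLA, and CTS 2 lay within the NC range. The log2 fold change over NC was 3.18 ± 0.49 (SE, adjusted p = 0.00216) in PLA and 2.40 ± 0.45 (SE, adjusted p = 0.0103) in GelMA. Over CTS, PLA was higher by 1.96 ± 0.48 (SE, adjusted p = 0.0238), a call lost without CTS 1, CTS 2, PLA 1 or PLA 2 (adjusted p 0.0628 to 0.140). Gbp5 stood at 33.4, 20.5 and 20.0 CPM in NC, 131, 149.8 and 172 in GelMA, 106, 39.1 and 63.8 in CTS, and 109 and 137 in PLA. All GelMA libraries lay above all CTS libraries, and both PLA libraries lay above them too. On the log2 scale, GelMA exceeded NC by 2.62 ± 0.35 (SE, adjusted p = 0.00182) and PLA by 2.32 ± 0.37 (SE, adjusted p = 0.00262). The Gbp2 and Gbp5 calls over NC held without each library.

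Isg20, an exonuclease of RNA, stood at 3.14, 5.42 and 5.24 CPM in NC, 9.46, 17.1 and 19.0 in GelMA, 14.7, 4.42 and 11.1 in CTS, and 19.2 and 23.6 in PLA. It was higher than in NC by 2.22 ± 0.47 (SE, adjusted p = 0.0119) in PLA and by 1.72 ± 0.44 (SE, adjusted p = 0.0345) in GelMA, with CTS 2 within the NC range. The PLA call was lost without PLA 2 (adjusted p 0.0791) and the GelMA call without NC 1, NC 3, GelMA 2, GelMA 3, CTS 3, PLA 1 or PLA 2 (adjusted p 0.0551 to 0.132). Rsad2, the radical SAM enzyme viperin, stood at 14.3, 6.96 and 11.9 CPM in NC, 2.58, 57.8 and 122 in GelMA, 515, 66.9 and 77.5 in CTS, and 151 and 210.3 in PLA. GelMA 1 lay below every NC library and CTS 1 was more than any other library, and the log2 fold change of PLA over NC was 4.03 ± 1.24 (SE, adjusted p = 0.0531), which did not pass. Bst2, or tetherin, averaged 109.6 ± 51.5 CPM in CTS and 42.6 ± 22.8 in NC, and also did not pass.

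**Figure D3:**
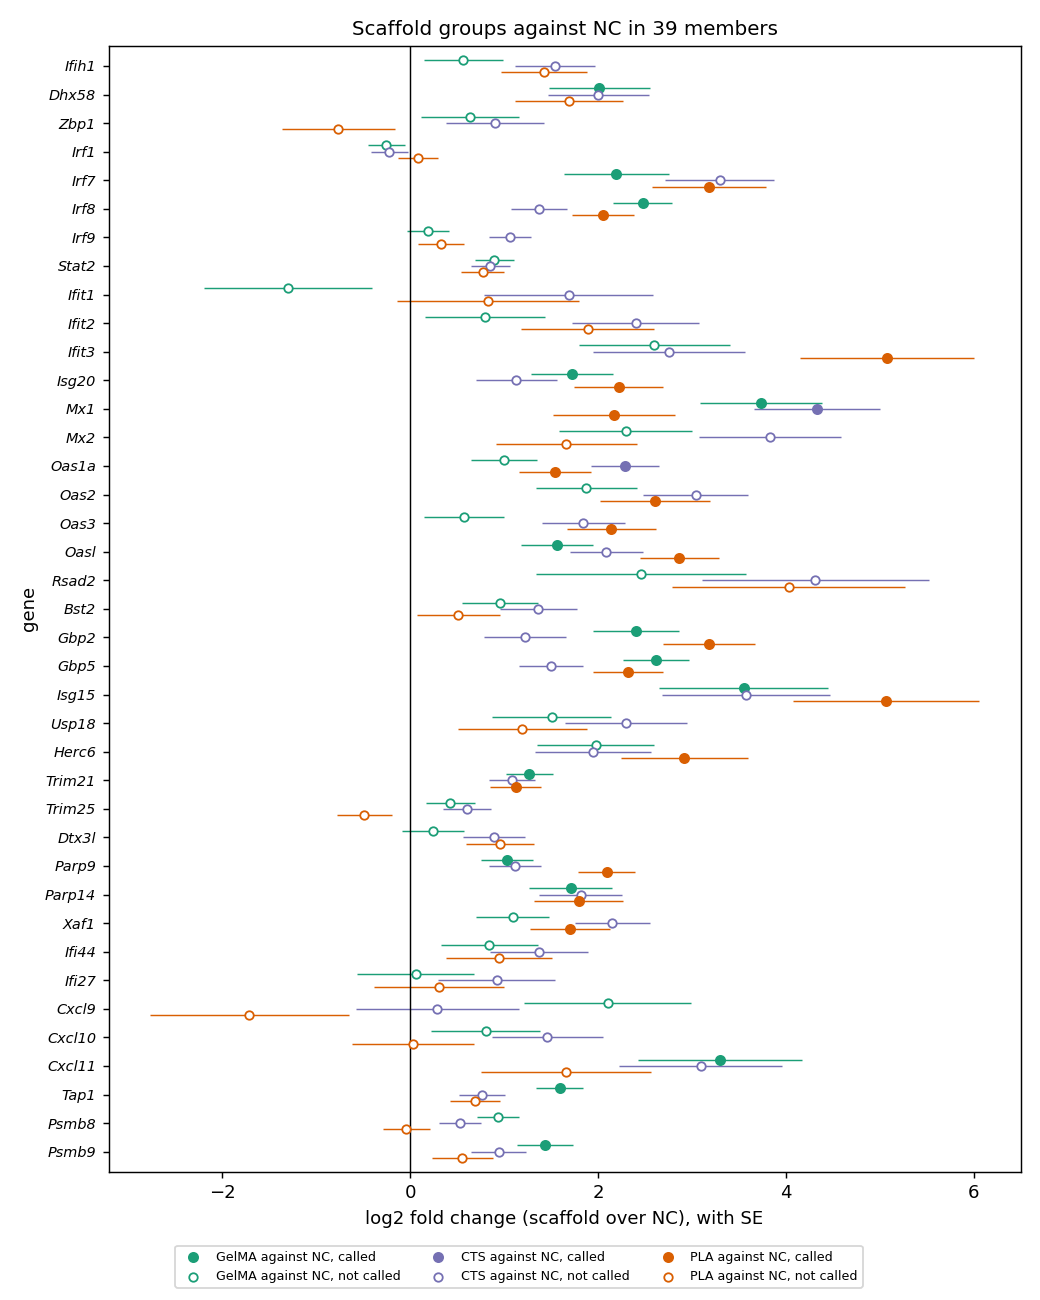
Log2 fold change of each scaffold group over NC with its SE for the 39 members other than Ifnb1, filled where the member was called. Ifit3 and Isg15 reach furthest in PLA (5.07 and 5.06), and Mx1 in CTS (4.33).

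Among genes of ISG15 conjugation, ubiquitin and ADP-ribose, Isg15 had the largest log2 fold change over NC in PLA, followed by Herc6 and Parp9. Of these 8 genes, 5 were called higher than in NC in PLA and 4 in GelMA, against 8.32% and 5.03% of all genes. Isg15, the ubiquitin-like protein attached to targets or secreted, stood at 5.05, 10.5 and 2.33 CPM in NC, 10.6, 65.1 and 134 in GelMA, 116, 26.2 and 70.8 in CTS, and 171 and 228 in PLA. Both PLA libraries exceeded all others, and GelMA 1 lay just above the NC range. Over NC, its log2 fold change was 5.06 ± 0.99 (SE, adjusted p = 0.00767) in PLA and 3.55 ± 0.90 (SE, adjusted p = 0.0337) in GelMA. Herc6, the ligase that attaches ISG15 in rodents, stood at 24.6, 53.2 and 20.2 CPM in NC, 46.3, 108 and 231 in GelMA, 160.4, 51.8 and 166 in CTS, and 231 and 263 in PLA. PLA was called higher than NC by 2.92 ± 0.68 (SE, adjusted p = 0.0170), while CTS 2 and GelMA 1 lay within the NC range. The Isg15 call in PLA held without each library, that in GelMA was lost without NC 1, NC 3, GelMA 2, GelMA 3, CTS 3, PLA 1 or PLA 2 (adjusted p 0.0529 to 0.129), and the Herc6 call without NC 3, PLA 1 or PLA 2 (adjusted p 0.0638 to 0.0810). Usp18, which removes ISG15 and damps the receptor, averaged 63.9 ± 28.2 CPM in CTS, 37.0 ± 18.7 in GelMA, 29.9 ± 1.78 in PLA and 13.1 ± 12.4 in NC, and did not pass.

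Parp9, an inactive ADP-ribosyltransferase that pairs with the ligase Dtx3l, stood at 50.9, 103 and 67.1 CPM in NC, 121, 143 and 189 in GelMA, 165, 134 and 181 in CTS, and 261 and 368 in PLA. Both PLA libraries exceeded all others. Relative to NC, Parp9 changed by 2.09 ± 0.30 (SE, adjusted p = 0.00144) on the log2 scale in PLA, which held without each library, and 1.03 ± 0.28 (SE, adjusted p = 0.0412) in GelMA. Parp14 stood at 28.0, 92.7 and 44.0 CPM in NC, 121, 162 and 254 in GelMA, 262, 139 and 179 in CTS, and 165 and 216 in PLA. The 3 scaffold groups overlapped one another and lay above NC, with log2 fold changes of 1.79 ± 0.48 (SE, adjusted p = 0.0297) in PLA and 1.71 ± 0.44 (SE, adjusted p = 0.0366) in GelMA. Dtx3l averaged 98.9 ± 10.2 CPM in PLA and 50.9 ± 17.5 in NC and did not pass. The GelMA call was lost for Parp9 without NC 1, NC 3, GelMA 1, GelMA 2, GelMA 3, CTS 1, CTS 2, CTS 3, PLA 1 or PLA 2 (adjusted p 0.0571 to 0.180). For Parp14 the GelMA call was lost without NC 1, NC 3, GelMA 1, GelMA 2, GelMA 3, CTS 1, CTS 2, CTS 3, PLA 1 or PLA 2 (adjusted p 0.0535 to 0.153) and the PLA call without NC 1, NC 3, GelMA 2, CTS 3, PLA 1 or PLA 2 (adjusted p 0.0504 to 0.167).

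Trim21 and Trim25 are ubiquitin ligases of the antiviral response, the former an intracellular antibody receptor and the latter an activator of RIG-I. Trim21 stood at 12.3, 20.0 and 17.3 CPM in NC, 31.95, 37.5 and 49.98 in GelMA, 41.6, 27.8 and 35.7 in CTS, and 31.0 and 40.9 in PLA. Every scaffold library exceeded NC, with log2 fold changes of 1.27 ± 0.25 (SE, adjusted p = 0.0121) in GelMA and 1.12 ± 0.27 (SE, adjusted p = 0.0202) in PLA. Trim25 stood at 13.7, 18.1 and 17.4 CPM in NC, 21.4, 22.6 and 22.1 in GelMA, 35.8, 18.4 and 20.7 in CTS, and 9.95 and 13.4 in PLA. It was the 1 member whose PLA libraries both lay below all NC libraries, where 17.2% of all genes did, and it was the 1 member called lower anywhere, in PLA against CTS, with a log2 fold change of -1.09 ± 0.30 (SE, adjusted p = 0.0364). The Trim25 call was lost without GelMA 2, CTS 1, PLA 1 or PLA 2 (adjusted p 0.0533 to 0.247). The Trim21 call was lost in GelMA without GelMA 3 (adjusted p 0.0671) and in PLA without NC 1, NC 3, PLA 1 or PLA 2 (adjusted p 0.0400 to 0.170), where leaving out NC 1 took the log2 fold change to 0.95.

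Among the small induced proteins, Xaf1, which promotes apoptosis, was called higher in PLA than in NC. It stood at 11.2, 12.5 and 13.4 CPM in NC, 13.4, 24.7 and 40.7 in GelMA, 77.8, 33.3 and 52.9 in CTS, and 37.7 and 42.6 in PLA. CTS had the highest mean, GelMA 1 lay just above the NC range, and the log2 fold change of PLA over NC was 1.70 ± 0.42 (SE, adjusted p = 0.0231), a call lost without NC 3, PLA 1 or PLA 2 (adjusted p 0.0632 to 0.123). Ifi44 averaged 29.3 ± 23.4 CPM in NC and 75.4 ± 28.8 in CTS, and Ifi27 averaged 35.2 ± 32.7 and 66.7 ± 31.99. For both, NC 2 was the highest of the NC libraries, and neither passed the test.

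The 3 chemokines bind the receptor Cxcr3 of activated T cells, and for Cxcl9 and Cxcl10 both PLA libraries lay below every GelMA library. Cxcl11 stood at 0.933, 1.40 and 2.33 CPM in NC, 3.06, 14.8 and 28.3 in GelMA, 20.3, 2.84 and 16.9 in CTS, and 3.98 and 5.89 in PLA. It was called higher in GelMA than in NC, by 3.30 ± 0.87 (SE, adjusted p = 0.0398), a call lost without NC 1, NC 2, NC 3, GelMA 2, GelMA 3, CTS 1, CTS 3, PLA 1 or PLA 2 (adjusted p 0.0574 to 0.149). Cxcl9, a target of interferon gamma, stood at 0.551, 14.0 and 4.32 CPM in NC, 16.8, 27.9 and 36.0 in GelMA, 6.26, 3.22 and 13.5 in CTS, and 1.16 and 2.66 in PLA. Every GelMA library lay above every other library, both PLA libraries lay below all CTS and GelMA libraries, and NC 2 lay far above NC 1 and NC 3. Cxcl10 stood at 27.3, 58.3 and 22.8 CPM in NC, 51.2, 66.0 and 71.7 in GelMA, 182, 30.7 and 85.3 in CTS, and 22.6 and 51.2 in PLA, with PLA 2 just under GelMA 1 and CTS 1 the highest library. Neither Cxcl9 nor Cxcl10 passed the test in any comparison.

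The 3 genes of class I antigen presentation were highest in GelMA, and 2 were called higher there than in NC, against 5.03% of all genes. Tap1, a chain of the peptide transporter, stood at 43.7, 47.5 and 32.2 CPM in NC, 101, 121 and 149.9 in GelMA, 81.6, 48.2 and 79.6 in CTS, and 60.5 and 72.5 in PLA. Psmb9, a subunit of the immunoproteasome, stood at 29.1, 12.2 and 21.6 CPM in NC, 47.3, 56.9 and 66.0 in GelMA, 37.2, 37.0 and 46.5 in CTS, and 25.0 and 36.7 in PLA. For both, every GelMA library exceeded every library of the other groups, and GelMA was called higher than NC by 1.59 ± 0.25 (SE, adjusted p = 0.00371) for Tap1 and 1.44 ± 0.30 (SE, adjusted p = 0.0145) for Psmb9. The Tap1 call held without each library, and the Psmb9 call was lost without NC 3, GelMA 2 or GelMA 3 (adjusted p 0.0510 to 0.0696). Psmb8, another immunoproteasome subunit, stood at 75.9, 43.5 and 48.6 CPM in NC, 94.7, 107 and 119 in GelMA, 84.2, 64.0 and 94.2 in CTS, and 51.4 and 57.5 in PLA. All GelMA libraries again exceeded all others, its log2 fold change over NC was 0.93 ± 0.23 (SE, adjusted p = 0.0285), under the fold threshold, and the PLA libraries lay within the NC range. Ifng and the summed markers of T and natural killer cells, given below, were highest in GelMA too, and their part in these levels was not tested.

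Across the groups, members had the order of Ifnb1 about as often as other genes did. By mean CPM Ifnb1 ran PLA, GelMA, CTS and NC from high to low. In this order CTS stood over NC on 1 count against 0. PLA over GelMA did not pass edgeR's test (adjusted p = 0.544), so the full order was only partly resolved. Of the other 39 members, 3 (Isg20, Gbp2 and Herc6) had this order, or 7.69%, and so did 7.74% of all tested genes. Means of GelMA and PLA both lay above those of NC and CTS for 6 of the 39 (15.4%), against 20.4% of all genes. Every GelMA and PLA library lay above every NC and CTS library for 2 (Irf8 and Gbp5, 5.13%), against 4.88% of all genes. CTS, in which Ifnb1 had 1 count, had a higher mean than GelMA for 26 members, against 49.4% of all genes. This count hung on single libraries. By fitted values it was 21 without CTS 1 or without GelMA 1, 30 without CTS 2 and 31 without GelMA 3. The median log2 fold change of members in CTS against GelMA, relative to the median gene, was 0.23 with all libraries. It was 0.01 without CTS 1, 0.12 without GelMA 1, 0.49 without CTS 2 and 0.73 without GelMA 3. It had the highest mean of the 4 groups for 19 members, PLA for 11, GelMA for 10 and NC for 0, against 18.4%, 28.5%, 23.5% and 29.6% of all genes. NC had the lowest mean for 34 members, PLA for 4, GelMA for 2 and CTS for 0, against 23.6%, 34.7%, 22.8% and 18.9%. Means of GelMA and CTS both lay above those of PLA and NC for 14 members, against 17.5% of all genes.

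The number of members highest in CTS was smallest without CTS 1. Without that library, 11 members were highest in CTS, 17 in PLA and 12 in GelMA, against 18.4%, 26.7% and 22.3% of all genes. With library size alone as the scaling, 21 were highest in CTS, 11 in GelMA, 7 in PLA and 1 in NC. Of all genes, 22.6%, 36.5%, 15.9% and 25% were highest there. NC was lowest for 32 members under that scaling, against 21.6% of all genes. Without GelMA 3, 23 were highest in CTS and 6 in GelMA, against 18.3% and 22.8% of all genes.

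**Figure D4:**
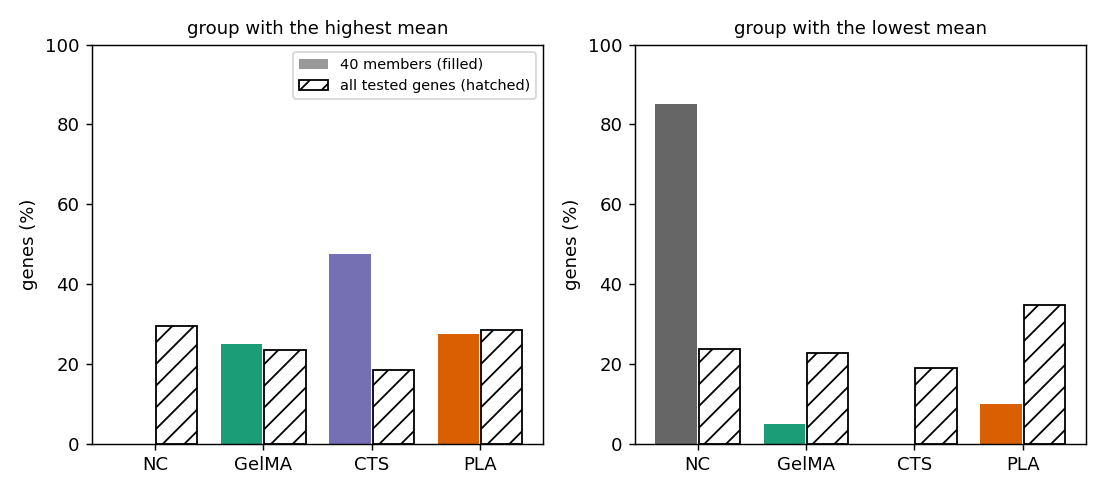
Share of the 40 members (filled bars) and of all tested genes (hatched bars) whose highest mean CPM (left) or lowest mean CPM (right) fell in each group. NC is lowest for 34 members, and CTS is highest for 19.

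Within GelMA nearly all members shared 1 order of libraries, and Ifnb1 had another, on few counts. GelMA 1 was the lowest of the 3 GelMA libraries for 39 of 40 members, where 37.6% of all genes were lowest there, and GelMA 3 was the highest for 37, where 34.6% of all genes were. Ifnb1 was the 1 member that was highest in GelMA 1, at 18 counts against 7 and 16. Within CTS, CTS 2 was the lowest for 37 members, against 34.3% of all genes, and the highest was CTS 1 for 22 and CTS 3 for 18. PLA 2 exceeded PLA 1 for 37 members, against 46.6% of all genes. In NC, the lowest value fell in NC 1 for 18 members, NC 2 for 10 and NC 3 for 12. Members within a library share its cells and its depth, so these counts describe libraries and are not replicates of a condition.

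Of the other interferons, Ifng was the one with more than a few counts. Ifng, the gene for interferon gamma, had 0, 12 and 0 counts in NC, 170, 161 and 241 in GelMA, 64, 8 and 55 in CTS, and 12 and 25 in PLA. GelMA exceeded all other libraries, and PLA fell within the range of CTS. It was called higher in GelMA than in NC by 4.99 ± 1.27 (SE, adjusted p = 0.0344), where all NC counts came from NC 2, and it passed no other comparison. The order of its group means was GelMA, CTS, PLA and NC, which 5 of 40 members shared, against 4.42% of all tested genes. Ifna1 had at most 10 counts in any library, Ifna4 and Ifnl1 had 1 count each in all, and Ifnl3 had 4. Of 18 listed interferon and receptor genes, 11 were in the table and 7 were tested. In PLA, 5 of them were called higher than in NC, 3 called higher than in GelMA and 3 higher than in CTS, with 0 lower, where 8.32%, 4.61% and 6.42% of all genes were called higher. In GelMA, 1 (Ifng) was called higher than in NC, against 5.03%. The Ifng call was lost without NC 3, GelMA 1, GelMA 2, GelMA 3, CTS 1, CTS 3, PLA 1 or PLA 2 (adjusted p 0.0523 to 0.114).

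Ifnar1, Ifnar2 and Il10rb were called higher in PLA than in every other group, and the other listed chains, Ifngr1, Ifngr2 and Ifnlr1, were not. Ifnar1 stood at 183, 115 and 171 CPM in NC, 189, 221 and 244 in GelMA, 182, 178 and 171 in CTS, and 509.6 and 464 in PLA. Ifnar2 stood at 85.9, 87.5 and 78.7 CPM in NC, 90.7, 100.3 and 121 in GelMA, 88.2, 86.4 and 78.6 in CTS, and 300.4 and 302 in PLA. Both PLA libraries exceeded all others for each chain. The log2 fold change of PLA was 1.64 ± 0.21 (SE, adjusted p = 0.000616) over NC, 1.16 ± 0.21 (SE, adjusted p = 0.00782) over GelMA and 1.46 ± 0.21 (SE, adjusted p = 0.00155) over CTS for Ifnar1. For Ifnar2 it was 1.84 ± 0.15 (SE, adjusted p = 6.01e-05), 1.54 ± 0.15 (SE, adjusted p = 0.000530) and 1.83 ± 0.15 (SE, adjusted p = 8.46e-05). Il10rb, a chain shared by the interferon lambda and interleukin-10 receptors, stood at 63.4, 50.4 and 57.5 CPM in NC, 64.4, 85.1 and 104 in GelMA, 52.1, 56.0 and 57.4 in CTS, and 302 and 281 in PLA, and PLA exceeded NC by 2.35 ± 0.20 (SE, adjusted p = 6.31e-05). The chains of the interferon gamma receptor, Ifngr1 and Ifngr2, were called higher in PLA than in NC alone, by 1.31 ± 0.15 (SE, adjusted p = 0.000394) and 1.23 ± 0.17 (SE, adjusted p = 0.00117), and with library size alone came to 0.98 (adjusted p = 0.00690) and 0.86 (adjusted p = 0.0344), under the fold threshold. Ifnlr1, the other chain of the interferon lambda receptor, stood at 7.76, 78.5 and 16.1 CPM in NC, 15.3, 15.8 and 20.5 in GelMA, 6.26, 8.72 and 14.0 in CTS, and 18.3 and 24.4 in PLA, and PLA against NC gave -0.67 ± 0.77 (SE, adjusted p = 0.609) on the log2 scale. The Ifnar1 call over GelMA was lost without PLA 1 or PLA 2 (adjusted p 0.0518 to 0.0817), and the other calls of Ifnar1, Ifnar2, Il10rb, Ifngr1 and Ifngr2 held without each library. With library size alone, the log2 fold change over GelMA came to 0.62 (adjusted p = 0.129) for Ifnar1 and 1.00 (adjusted p = 0.00686) for Ifnar2, and that over CTS to 0.98 (adjusted p = 0.0291) for Ifnar1, none of which passed both thresholds.

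Upstream of Ifnb1, 22 of 24 listed sensing genes were tested, and PLA had 7 called higher than NC, 3 called above GelMA and 4 called above CTS, with 0 lower. Of all genes, 8.32%, 4.61% and 6.42% were called higher there. In GelMA 4 were called higher than in NC and in CTS 1, against 5.03% and 0.155% of all genes. Tbk1, the kinase that activates Irf3, stood at 70.0, 63.2 and 63.5 CPM in NC, 101, 109 and 124 in GelMA, 82.3, 72.6 and 80.6 in CTS, and 263 and 321 in PLA. PLA exceeded NC by 2.15 ± 0.15 (SE, adjusted p = 3.86e-05), GelMA by 1.39 ± 0.15 (SE, adjusted p = 0.000713) and CTS by 1.89 ± 0.15 (SE, adjusted p = 7.90e-05). Tlr8, an endosomal receptor of RNA, stood at 10.99, 5.69 and 9.26 CPM in NC, 50.1, 61.6 and 65.7 in GelMA, 34.6, 22.7 and 36.3 in CTS, and 43.1 and 50.2 in PLA. Its log2 fold change over NC was 2.77 ± 0.27 (SE, adjusted p = 0.000516) in GelMA, 2.43 ± 0.29 (SE, adjusted p = 0.000452) in PLA and 1.85 ± 0.27 (SE, adjusted p = 0.0474) in CTS. Tlr9, the DNA receptor of plasmacytoid dendritic cells and B cells, stood at 0.255, 0.994 and 1.61 CPM in NC, 5.19, 3.13 and 5.87 in GelMA, 0.974, 1.86 and 2.00 in CTS, and 2.65 and 2.23 in PLA, and GelMA was called higher than NC by 2.30 ± 0.61 (SE, adjusted p = 0.0384). Irf3, the factor that acts directly on Ifnb1, stood at 69.9, 60.3 and 47.1 CPM in NC, 89.0, 83.0 and 94.8 in GelMA, 48.6, 54.1 and 61.1 in CTS, and 64.8 and 54.7 in PLA, and it passed no comparison. The Tbk1 calls held without each library, but with library size alone the log2 fold change of PLA over GelMA was 0.85 (adjusted p = 0.0139). The Tlr8 call in CTS was lost without NC 3, GelMA 1, GelMA 2, GelMA 3, CTS 1, CTS 3, PLA 1 or PLA 2 (adjusted p 0.0717 to 0.177) and the Tlr9 call without GelMA 1, GelMA 2, GelMA 3, CTS 1, CTS 2, CTS 3, PLA 1 or PLA 2 (adjusted p 0.0546 to 0.140).

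Downstream of the receptor, 13 genes of signaling and its brakes were tested. In PLA, 1 was called higher than in NC, 1 higher than in GelMA and 2 higher than in CTS. Of all genes, 8.32%, 4.61% and 6.42% were called higher there. Against GelMA, 1 was called lower in PLA, where 1.47% of all genes were. In GelMA 1 was called higher than in NC and in CTS 0, against 5.03% and 0.155% of all genes. Not every called gene of this list is named here. Socs3, an inhibitor of cytokine signaling that many cytokines induce, stood at 283, 767 and 455 CPM in NC, 589, 714 and 722 in GelMA, 271, 258 and 527 in CTS, and 2245 and 2175 in PLA. PLA exceeded NC by 2.14 ± 0.41 (SE, adjusted p = 0.00654), GelMA by 1.71 ± 0.40 (SE, adjusted p = 0.0286) and CTS by 2.65 ± 0.41 (SE, adjusted p = 0.00269). Jak1, a kinase on both interferon receptors, was higher in PLA than in CTS by 1.11 ± 0.32 (SE, adjusted p = 0.0437). The Socs3 call in PLA against GelMA was lost without GelMA 1, GelMA 2, GelMA 3, PLA 1 or PLA 2 (adjusted p 0.0790 to 0.142) and the Jak1 call without NC 3, GelMA 1, GelMA 2, GelMA 3, CTS 1, CTS 2, CTS 3, PLA 1 or PLA 2 (adjusted p 0.0590 to 0.186).

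Further genes known as interferon-stimulated were also called higher than in NC in each scaffold group. Of 50 listed, 47 were tested, and 12 were called higher in PLA than in NC, 13 in GelMA and 3 in CTS, with 0 lower, where 8.32%, 5.03% and 0.155% of all genes were called higher. Against GelMA, PLA had 2 called up and 0 down, where 4.61% and 1.47% of all genes were, and against CTS 3 up and 3 down, where 6.42% and 3.53% were. For CTS against GelMA, 1 was up and 1 down, against 0.416% and 1.32%. Cd274, which encodes the checkpoint ligand PD-L1, stood at 63.0, 96.9 and 106 CPM in NC, 281, 422 and 686 in GelMA, 129.7, 82.5 and 113 in CTS, and 2818 and 3208 in PLA. Both PLA libraries exceeded all others, by 5.09 ± 0.40 (SE, adjusted p = 5.38e-05) over NC, 2.70 ± 0.36 (SE, adjusted p = 0.00193) over GelMA and 4.80 ± 0.39 (SE, adjusted p = 7.93e-05) over CTS. Gbp4, of the family of Gbp2 and Gbp5, stood at 6.96, 3.48 and 6.24 CPM in NC, 71.1, 62.6 and 80.8 in GelMA, 21.3, 11.3 and 33.4 in CTS, and 42.2 and 60.2 in PLA, with log2 fold changes over NC of 3.68 ± 0.41 (SE, adjusted p = 0.000706) in GelMA and 3.20 ± 0.42 (SE, adjusted p = 0.000847) in PLA. Ido1, an enzyme of tryptophan breakdown that interferon gamma induces, had 0, 0 and 0 counts in NC, 30, 17 and 56 in GelMA, 5, 0 and 0 in CTS, and 12 and 21 in PLA. It was called higher than in NC in GelMA (adjusted p = 0.0417) and PLA (adjusted p = 0.0437), and like Ifnb1 it passed the count filter only through the groups where it was high. These calls were lost in GelMA without NC 1, NC 3, GelMA 1, GelMA 2, GelMA 3, PLA 1 or PLA 2 (adjusted p 0.0502 to 0.130) and in PLA without NC 1, NC 3, GelMA 1, GelMA 2, GelMA 3, PLA 1 or PLA 2 (adjusted p 0.0598 to 0.149), and those of Cd274 and Gbp4 given here held.

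Markers of other cell types also differed between the groups. Summed over 10 markers of T and natural killer cells, levels were 85.6 to 176 CPM in NC, 620 to 674 in GelMA, 169 to 292 in CTS, and 302 and 317 in PLA. Over 9 markers of dendritic and plasmacytoid dendritic cells they were 30.5 to 60.7 in NC, 191 to 232 in GelMA, 85.9 to 118 in CTS, and 157 and 179 in PLA. GelMA overlapped no other group for the sum of either list. Of the 10 T and natural killer markers, 7 had every GelMA library above every CTS library. Nkg7 stood at 45.6 to 47.9 CPM in GelMA, 17.4 to 96.4 in NC, 56.2 to 72.9 in CTS, and 16.4 and 20.4 in PLA. Ncr1 was 7.63 to 11.9 in GelMA and 32.7 in both PLA libraries. Gzmb was 26.1 to 39.5 in GelMA, 34.8 to 43.3 in CTS, and 54.2 and 34.1 in PLA. Siglech, a marker of plasmacytoid dendritic cells, the cells known for making type I interferon, stood at 1.38 to 1.76 CPM in NC, 34.3 to 42.0 in GelMA, 3.76 to 9.34 in CTS, and 32.6 and 42.2 in PLA. Its GelMA and PLA libraries lay above all NC and CTS libraries, as did those of Flt3, and the other 7 of the 9 markers did not have that pattern. Outside this list, 4 of 11 macrophage markers (Adgre1, Mrc1, Cd14 and Aif1) had the same pattern. So did 3 of 10 T and natural killer markers (Cd3e, Cd3g and Prf1) and 1 of 6 pan-leukocyte markers (Cd53). It was in 0 of the neutrophil, B cell, mesenchymal and endothelial markers. Siglech was singled out after its values were seen. The 5 B cell markers summed to 17.8 to 36.6 CPM in NC, 232 to 337 in GelMA, 66.0 to 102 in CTS, and 26.9 and 43.0 in PLA. B cell markers were highest in GelMA, and PLA overlapped NC. The 11 macrophage markers summed to 2616 to 10532 CPM in NC, 5394 to 8928 in GelMA, 10171 to 12758 in CTS, and 4067 and 4722 in PLA. The 9 neutrophil markers summed to 9014 to 67329 CPM in NC, 4800 to 11776 in GelMA, 27030 to 46288 in CTS, and 8728 and 9330 in PLA. Most of the macrophage sum was Lyz2, a lysozyme that neutrophils also express, and without it the other 10 markers summed to 304 to 353 CPM in NC, 1477 to 1661 in GelMA, 653 to 784 in CTS, and 989 and 1012 in PLA. Among the 11 macrophage markers, 9 had every GelMA library above every CTS library, so the order of the sum was that of Lyz2. For the neutrophil sum, and for each neutrophil marker but Csf3r, every CTS library lay above every GelMA and PLA library. Csf3r stood at 265 to 308 CPM in CTS, 290 to 507 in GelMA, and 925 and 812 in PLA. The 6 pan-leukocyte markers summed to 1457 to 6566 CPM in NC, 4390 to 4666 in GelMA, 4377 to 5227 in CTS, and 5881 and 6063 in PLA. The 5 endothelial markers summed to 119 to 261 CPM in NC, 163 to 179.7 in GelMA, 149 to 311 in CTS, and 249 and 280.2 in PLA. The 10 mesenchymal markers summed to 24506 to 25638 CPM in GelMA, 22669 to 36830 in CTS, and 24531 and 37358 in PLA. NC, with NC 2 set apart above, spanned a wider range for mesenchymal markers than any scaffold group. Nearly all listed markers were read in every library, the exceptions being Cd52 at 0 in both PLA libraries, Ccr9 at 0 in NC 1 and NC 2, and Cd163 and Klrb1a at 0 in NC 1. The part of these cells in the levels of the interferon response genes was not tested.

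**Figure D5:**
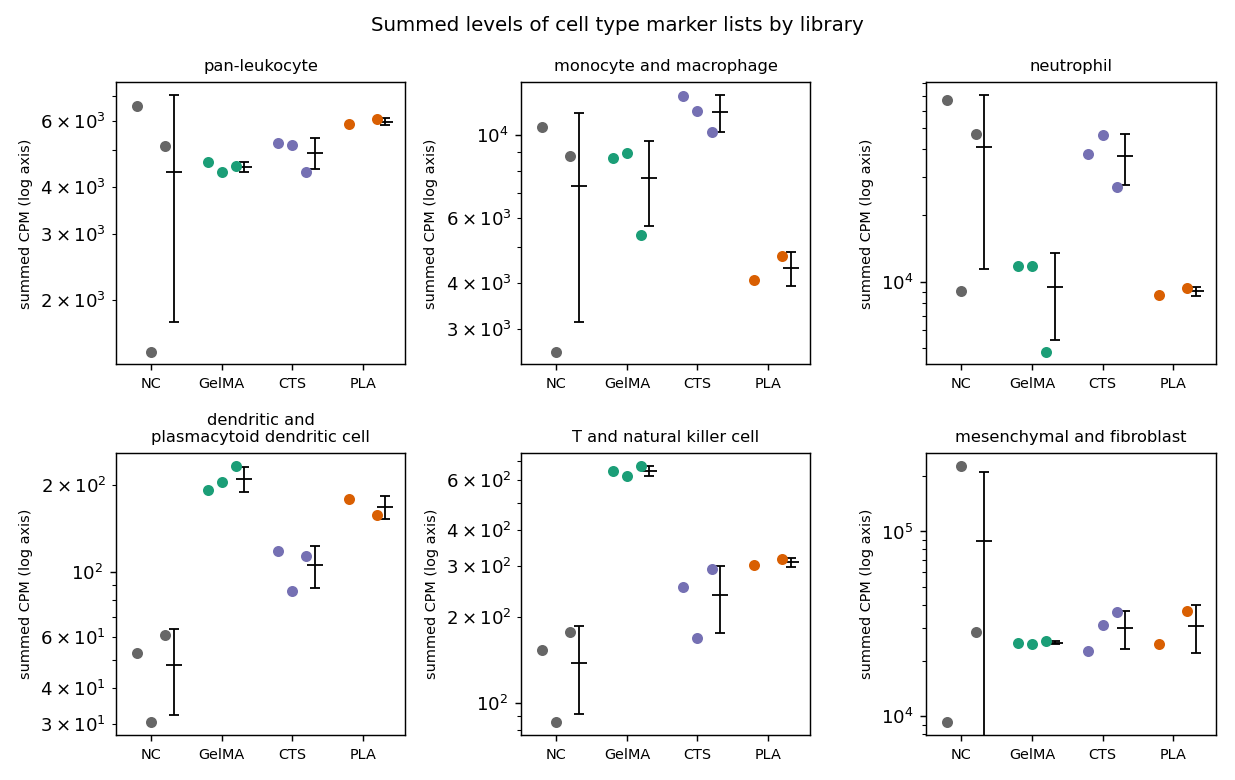
Summed CPM of 6 cell type marker lists on log axes, 1 point per library, with the group mean and SD beside the points (the SD of NC runs below the axis for mesenchymal markers). The sum of T and natural killer markers is highest in GelMA (620 to 674), though not each marker of that list, and the dendritic sum is lowest in NC.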

How the data were processed

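The study measured RNA by sequencing in 11 libraries of Cd45- cells from rat calvarial defects, 3 each for NC, GelMA and CTS and 2 for PLA, grouped by their labels. Per the labels and the submitters' processing notes, the authors used fastp, HISAT2, the build mRatBN7.2, HTSeq and DESeq, with no versions given. They deposited whole-number counts per gene, not normalized, and FPKM, which scales counts by gene length and library total. The deposited columns all matched a sample. Total counts of 22509898 to 31290849 per library limit precision for low genes such as Ifnb1, whose intervals cover counting error only.

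The analysis of counts used edgeR 4.0.16 under R 4.3.3 (filterByExpr with a minimum count of 10, TMM, robust quasi-likelihood fit with all 4 groups, 6 pairwise comparisons). The standard error is the size of the log2 fold change divided by the square root of F. Levels are CPM after TMM. The steps were tested on simulated data. Alternatives were DESeq2 1.42.0, limma 3.58.1 on log2(FPKM + 1), RLE or library size scaling, no filter, 2-group fits, a replicate block and the removal of each library in turn.

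The members, gene lists and marker lists were chosen with earlier results of these data known. Values per library are given for Ifnb1 and each called member. From each pathway list up to 3 called genes of largest fold change are named, with Irf3, Ifng, Ifnar1, Ifnar2 and Ptprc; 1 gene that this rule names is not reported here. Same-numbered libraries of different groups correlated at -0.11 to 0.12 after removing group means, over 0.1 in 1 of 15 pairs, so the numbers were not taken as pairs. Promoters came from RefSeq (GRCr8), 250 bases before to 50 after the start. Python 3.11.15 with matplotlib 3.10.9 drew the figures.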

Additional observations from a re-analysis of the deposited data

How the results depend on the processing

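Over 6 comparisons, 39 pairs of a member and a comparison were called. None of the 39 called pairs changed sign under any alternative, and 11 of them kept their call under every alternative run: Irf7, Ifit3, Oasl, Gbp2, Gbp5, Isg15 and Parp9 in PLA against NC, and Irf8, Mx1, Gbp5 and Tap1 in GelMA against NC. Percentages in brackets below are the shares of all genes in the same fit called in the same direction. The counts of members called moved most for CTS against NC, where 2 were called higher (0.155%). That became 24 with DESeq2 (2.07%) and 7 with library size alone (0.432%). It became 0 with RLE size factors, with edgeR on the groups compared, with limma and with the replicate block (at most 0.0443%). For GelMA against NC, 16 higher (5.03%) became 9 with no filter (3.35%), 4 with edgeR on the groups compared (3.01%) and 8 with the replicate block (4%). For PLA against GelMA, 0 higher (4.61%) became 1 with RLE size factors (4.86%) and 4 with DESeq2 (7.27%) or edgeR on the groups compared (10.1%). There 0 lower (1.47%) became 6 with library size alone (12.8%) or limma (7.6%). It became 1 lower with DESeq2 (3.09%) and 2 with edgeR on the groups compared (4.98%). For PLA against CTS, 2 higher (6.42%) became 4 with DESeq2 (8.88%) and 1 with the replicate block (5.53%). There 1 lower (3.53%) became 7 with library size alone (12.3%) and 6 with limma (7.5%). It became 4 lower with DESeq2 (5.95%) or edgeR on the groups compared (6.7%) and 0 with the replicate block (2.4%). For CTS against GelMA, 0 higher (0.416%) became 3 with DESeq2 (3.26%) or edgeR on the groups compared (4.94%). There 0 lower (1.32%) became 3 with DESeq2 (3.46%) and 1 with edgeR on the groups compared (4.63%). For PLA against NC, no setting with all libraries moved the 18 (8.32%) by over 1.5 times, and the replicate block gave 16 (7.39%).

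Fits without a PLA library keep 1 library in that group and are left out of the ranges that follow. Leaving out each other library in turn gave 13 to 21 members higher (6.56% to 11.4%) and 0 to 1 lower (3% to 7.58%) in PLA against NC. Against GelMA, PLA had 0 to 2 higher (2.31% to 7.2%) and 0 to 2 lower (0.369% to 3.49%). Against CTS, it had 0 to 2 higher (4.14% to 8.88%) and 0 to 2 lower (1.82% to 6.21%). In GelMA against NC the ranges were 5 to 20 higher (2.62% to 7.26%) and 0 to 0 lower (0.72% to 6.71%). In CTS against NC they were 0 to 9 higher (0% to 0.722%) and 0 to 0 lower (0% to 0.218%). In CTS against GelMA they were 0 to 3 higher (0.0112% to 3.75%) and 0 to 1 lower (0.00559% to 3.38%). Library size alone shifted the median gene of PLA by -0.32 (log2) for NC as the other group, by -0.54 for GelMA and by -0.48 for CTS, and relative to the median gene the median member of PLA against GelMA was 0.24 with it and with TMM, -0.05 with limma, and 0.04 without GelMA 1. The cause of these moves was not tested. Ifnb1 had 1 count in CTS and 0 in NC, so a difference between these groups was not detectable at this depth.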
